A study of Mus musculus with 8 samples.

Results

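The genes described here mark the nerves of the lung and the Schwann cells that wrap them. They are *Sox10*, *Foxd3*, *Prph*, *Tubb3* and *Ret*, 5 of the 55385 genes in the count files, taken by name and matched to their Ensembl identifiers. RNA of whole lungs from C57BL/6 mouse fetuses at E18.5 was sequenced, with 4 libraries from control lungs and 4 from lungs after tracheal occlusion (TO). In TO the fetal trachea is tied off in utero, here at E16.5, so that liquid secreted by the lung is retained and stretches it. In the study's model the same ligature also closed a carotid artery and a jugular vein. No transgene or mutant allele is named for either group, and the labels name the samples as separate lung specimens without giving litters.

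The main comparison used 6 libraries, controls 1, 2 and 4 against TO 2, 3 and 4, which are those the study itself displayed. All 8 are shown. Read pairs assigned to genes numbered 22822261 to 35002061 in 7 libraries and 270078 in TO 1. In TO 1 a count of 3 therefore stands for 10.3 CPM (counts per 1000000 counts of the library after TMM scaling), against 0.0851 to 0.131 CPM in the others. TO 1 also held 2751 CPM of 7 skeletal muscle markers, against 149 to 306 CPM in the other TO lungs, and 372 CPM of 6 thymocyte markers, against 3.35 to 18.0 CPM. Lung identity was plain in every library: *Sftpc*, the surfactant protein of alveolar type 2 cells, measured 4431 to 12792 CPM.

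The ganglia within the lung arise from vagal neural crest cells, which migrate along the foregut into the lung buds and settle as small groups beside the airways. The neurons of these ganglia supply airway smooth muscle, and sensory and sympathetic fibres grow in from cell bodies outside the lung, so that most of the RNA of those incoming neurons stays outside the organ. Glial and Schwann cell precursors travel with the axons, need the transcription factor SOX10 throughout, and receive neuregulin from the axon through ERBB3. RET is the signalling receptor for the GDNF family of ligands, which guides neural crest cells and their axons. In whole tissue RNA, fewer cells of a type and less RNA per cell cannot be told apart.

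*Sox10* encodes the SRY-box factor that glia and their precursors keep through life. It lies on chromosome 15 (GRCm38, chr15:79154908-79165240, reverse strand) with 3051 exonic bases. Its level was 2.98, 2.66, 2.35 and 2.58 CPM in controls 1 to 4. It was 3.50, 3.30 and 3.77 CPM in TO 2, 3 and 4, and 3.44 CPM in TO 1, where it rested on 1 read pair. Every TO library lay above every control. In the 6 libraries the mean was 2.74 ± 0.21 CPM in controls (SD, n = 3) and 3.53 ± 0.24 CPM in TO (SD, n = 3). The fitted log2 fold change was 0.36 ± 0.29 (SE, edgeR quasi-likelihood test, Benjamini-Hochberg adjusted p = 0.915). Its 95% interval ran from a fold of 0.813 to a fold of 2.04, so the fit across all genes did not separate the groups. The counts behind these levels were small, 64 to 133 read pairs in the 7 deep libraries.

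*Foxd3* encodes a forkhead factor of the early neural crest and is counted here among the Schwann cell and glial genes. No read pair was assigned to it in any library, 0 of 204641633 in all. Its single exon of 2324 bases lies at chr4:99656299-99658622 on the forward strand, and 89 of those bases are shared with the microRNA gene *Gm23366*, where reads would be left unassigned. At these depths a level under 0.0851 to 0.131 CPM, by library, would not have been detected in the 7 deep libraries, and TO 1 carries no information on the gene. *Foxd3* entered no test.

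*Prph* encodes peripherin, an intermediate filament of peripheral neurons (chr15:99055174-99058978, forward strand, 1999 exonic bases). Its level was 2.76, 4.38, 7.19 and 7.43 CPM in controls 1 to 4. It was 7.50, 6.73 and 8.74 CPM in TO 2, 3 and 4, and no read pair was assigned to it in TO 1, which allows a level of up to 10.3 CPM there. Controls 1 and 2 stood below the TO lungs, whereas controls 3 and 4 stood among them. The means of the 6 libraries were 4.86 ± 2.37 CPM in controls and 7.66 ± 1.02 CPM in TO (SD, n = 3 each). The log2 fold change was 0.65 ± 0.36 (SE, edgeR, adjusted p = 0.907), with an interval from a fold of 0.898 to one of 2.76. This was the largest fitted change among the members, and it was the one that moved most with single libraries. Without control 4 it was 1.10 (edgeR, adjusted p = 0.595), without control 1 it was 0.38, and with controls 3 and 4 alone against the 3 TO lungs it was 0.07.

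*Tubb3* encodes class III beta-tubulin, the neuronal beta-tubulin of growing axons (chr8:123411424-123422015, forward strand, 1868 exonic bases). Its level was 4.73, 1.82, 1.68 and 5.93 CPM in controls 1 to 4. It was 5.12, 3.05 and 3.21 CPM in TO 2, 3 and 4. The value of 13.8 CPM in TO 1 came from 4 read pairs, with an exact 95% Poisson interval of 3.75 to 35.3 CPM that covers counting error only. Controls held both the lowest and, among the 7 deep libraries, the highest level. The means were 4.16 ± 2.12 CPM in controls and 3.80 ± 1.15 CPM in TO (SD, n = 3 each), with a log2 fold change of −0.13 ± 0.45 (SE, edgeR, adjusted p = 0.982). Its sign turned with the libraries used, being 0.11 in the 7 deep libraries and 0.33 in all 8.

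Beta-tubulin genes are close copies of each other, and the abundant ones are far above *Tubb3*: *Tubb5* measured 371 to 971 CPM and *Tubb4b* 249 to 397 CPM in the 7 deep libraries, against 1.68 to 5.93 CPM for *Tubb3*. The sequences below show the longest stretches that the 1350 coding bases of *Tubb3* (stop codon left out) share letter for letter with transcripts of another beta-tubulin gene. The longest, 47 bases shared with *Tubb6*, covers coding positions 1240 to 1286 (GRCm38, chr8:123421569-123421615, forward strand). The stretch of 45 bases shared with *Tubb2a* and *Tubb2b* covers positions 1006 to 1050 (chr8:123421335-123421379). Positions are counted from 1 at the first coding base.
Shared with Tubb6: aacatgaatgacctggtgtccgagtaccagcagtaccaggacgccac
Shared with Tubb2a and Tubb2b: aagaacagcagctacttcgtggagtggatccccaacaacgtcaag
Both are far shorter than the reads of 150 bases. Of the 150-base windows in the transcripts of each member, 0 occurred in the transcripts of any other gene, for all 5 members.

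*Ret* encodes the receptor tyrosine kinase of the GDNF family (chr6:118151745-118197718, reverse strand, 6763 exonic bases). Its level was 5.30, 3.61, 4.47 and 5.77 CPM in controls 1 to 4. It was 6.77, 6.94 and 5.96 CPM in TO 2, 3 and 4, and no read pair fell on it in TO 1. Apart from TO 1, every TO library lay above every control, by a narrow margin between TO 4 and control 4. The means were 4.89 ± 1.14 CPM in controls and 6.56 ± 0.52 CPM in TO (SD, n = 3 each). The log2 fold change was 0.42 ± 0.27 (SE, edgeR, adjusted p = 0.907), with an interval from a fold of 0.881 to one of 2.03. Without control 2, the lowest library, it was 0.25.

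**Figure D1:**
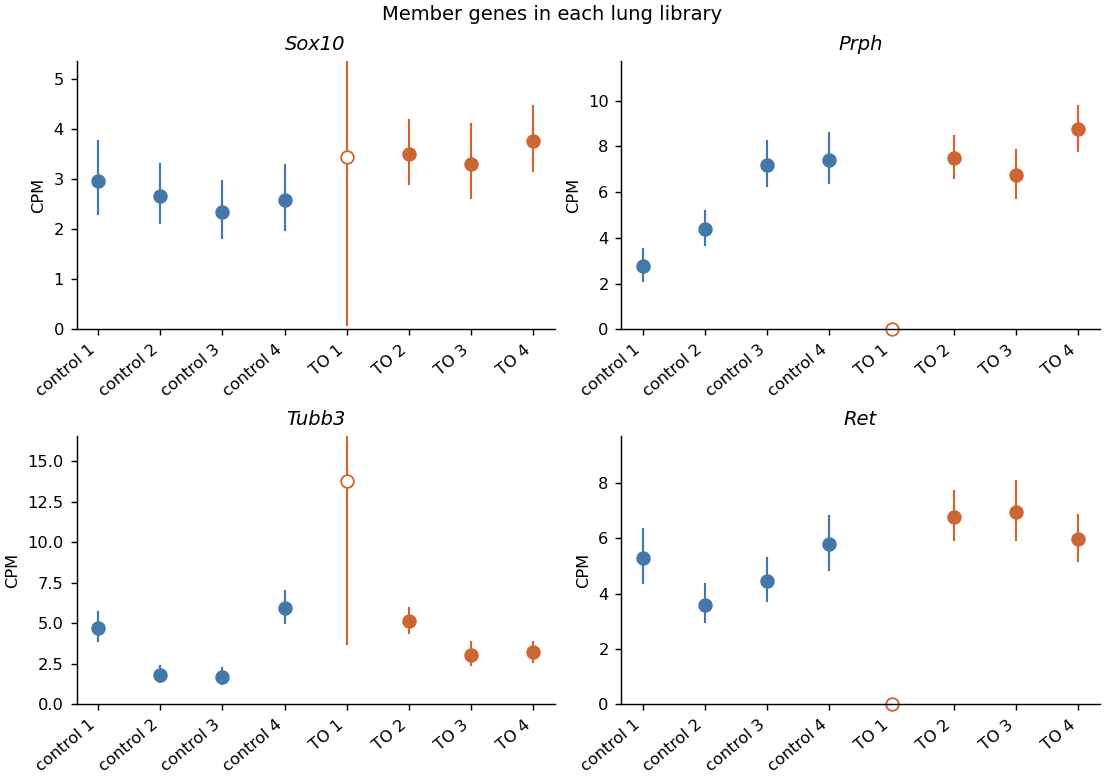
CPM of Sox10, Prph, Tubb3 and Ret (y axes) in each of the 8 libraries (x axes), controls in blue and TO in orange. Bars are exact 95% Poisson intervals of the counts, the open circle is the shallow library TO 1, whose intervals run off the axes or are not drawn at a count of 0. Sox10 in TO 2, 3 and 4 lies at 3.30 to 3.77 CPM, above the 2.35 to 2.98 CPM of the controls, whereas Tubb3 levels of the groups overlap.

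Among the 4 members tested, 0 passed an adjusted p of 0.1 in edgeR, in a comparison where 0 of 21859 genes passed (0.0% called), as also in all 8 libraries (0 of 22545 genes, 0.0% called). DESeq2 called 44 genes (0.201%), none of them a member. At an unadjusted p under 0.05, edgeR had 1123 genes (5.14%) and 0 of the 4 members. The groups did not overlap in the 6 libraries for *Sox10* and *Ret*, with TO higher, which held for 5.09% of all genes tested. The same 2 members were separate in the 7 deep libraries, where 2.25% of genes were.

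**Figure D2:**
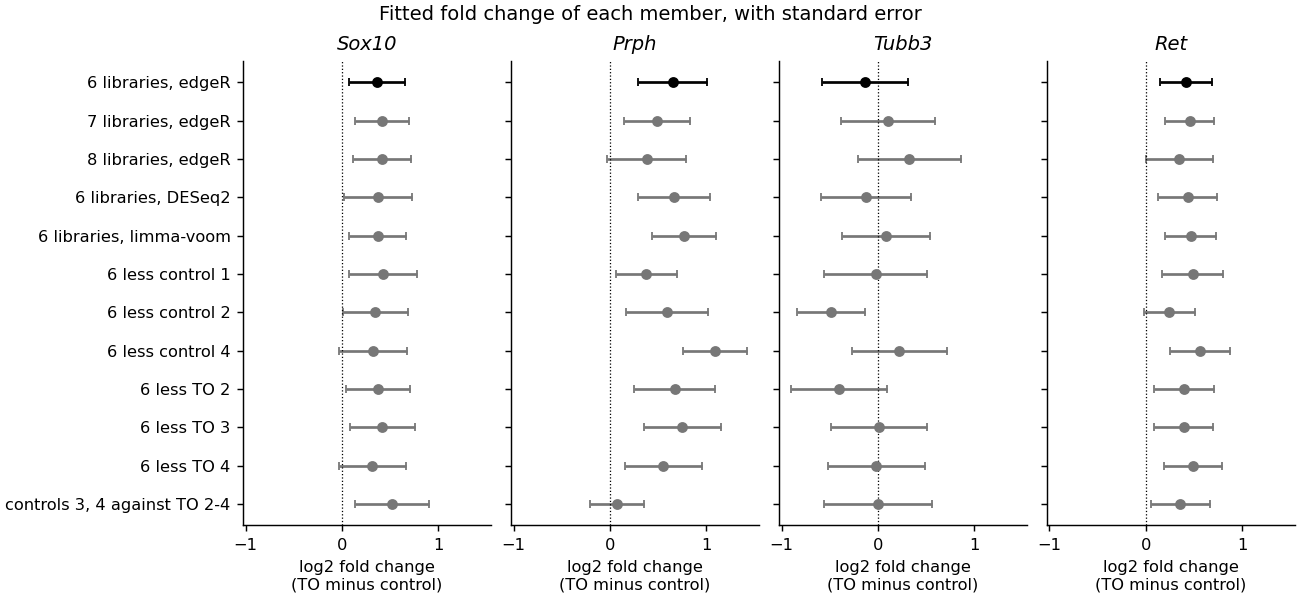
Fitted log2 fold change, TO minus control (x axes), of the 4 members with reads, with the standard error as bars, in 12 fits (y axis) that differ in the libraries or the tool. The fitted values of Sox10 and Ret stay above 0 in each fit, with bars that reach below 0 in some. Those of Prph range from 0.07 to 1.10, and those of Tubb3 lie on both sides of 0.

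The file names carry a specimen code that the labels do not explain, shared by controls 1 and 4 with TO 1 and 4, by control 2 with TO 2 and by control 3 with TO 3. Within each code, *Sox10* and *Ret* were higher in the deep TO library than in its controls. *Prph* was higher in TO 2 and TO 4 than in the controls of their code, and lower in TO 3 than in control 3. *Tubb3* was lower in TO 4 than in both its controls, and higher in TO 2 and TO 3 than in theirs. With the code as a term in the edgeR fit of 6 libraries, the log2 fold changes were 0.43 for *Sox10* (adjusted p = 0.929), 0.78 for *Prph* (0.825), 0.26 for *Tubb3* (0.981) and 0.46 for *Ret* (0.889). TO 3 had no control of its code in that fit, which therefore compared only TO 2 and TO 4 with controls. In all 8 libraries, where control 3 enters, the values were 0.43, 0.43, 0.65 and 0.40 in the same order.

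Per length of exonic sequence, the order of the levels in the 4 control lungs was *Prph*, *Tubb3*, *Sox10* and *Ret*. *Prph* stood at 2.72 ± 1.13 CPM per kb and *Tubb3* at 1.90 ± 1.14 CPM per kb, closer than their spread. *Sox10* stood at 0.867 ± 0.085 and *Ret* at 0.708 ± 0.141 CPM per kb (SD, n = 4 controls for each gene), also with overlapping libraries. Relative to its mean, *Sox10* varied least among controls and *Tubb3* most.

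Across the 7 deep libraries the members did not rise and fall as 1 group. Over these 7 points, which share their libraries and scaling factors, Pearson's r of the log2 CPM was 0.68 between *Sox10* and *Ret* and between *Tubb3* and *Ret*, 0.24 between *Sox10* and *Prph*, and −0.01 between *Prph* and *Tubb3*. The 3 genes most like each member, of 15882 compared, had r of 0.97 to 0.99, which in so many genes and 7 libraries describes a ranking only. They were *Pcyt1b*, *Ltf* and *Mall* for *Sox10*; *Trp53inp2*, *Kcng2* and *Hacd1* for *Prph*; *Ttc26*, *Prokr1* and *Bms1* for *Tubb3*; and *Zfp667*, *Pdxk* and *Fgd3* for *Ret*. None is a gene of the lists described here.

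*Prph* was low in the 2 control libraries that were also low in cardiac muscle markers. The summed level of 10 such genes was 756, 479, 4862 and 3830 CPM in controls 1 to 4, and 5939, 2495, 3763 and 4807 CPM in TO 1 to 4. *Myh6*, the atrial myosin heavy chain, the most abundant of them, was 299 and 167 CPM in controls 1 and 2 and 1032 to 1900 CPM in the other 6 libraries. All 10 had a positive log2 fold change in the 6 libraries, with a median of 1.16, and 0 passed the test (edgeR). With controls 3 and 4 alone against TO 2, 3 and 4 that median was −0.09, while *Prph* measured 0.07, *Sox10* 0.52 and *Ret* 0.36. *Nppa*, the atrial natriuretic peptide, was at 0.44 and 1.59 CPM in controls 1 and 2 and at 41.3 to 110 CPM elsewhere. The part of heart tissue in the *Prph* result was not tested.

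**Figure D3:**
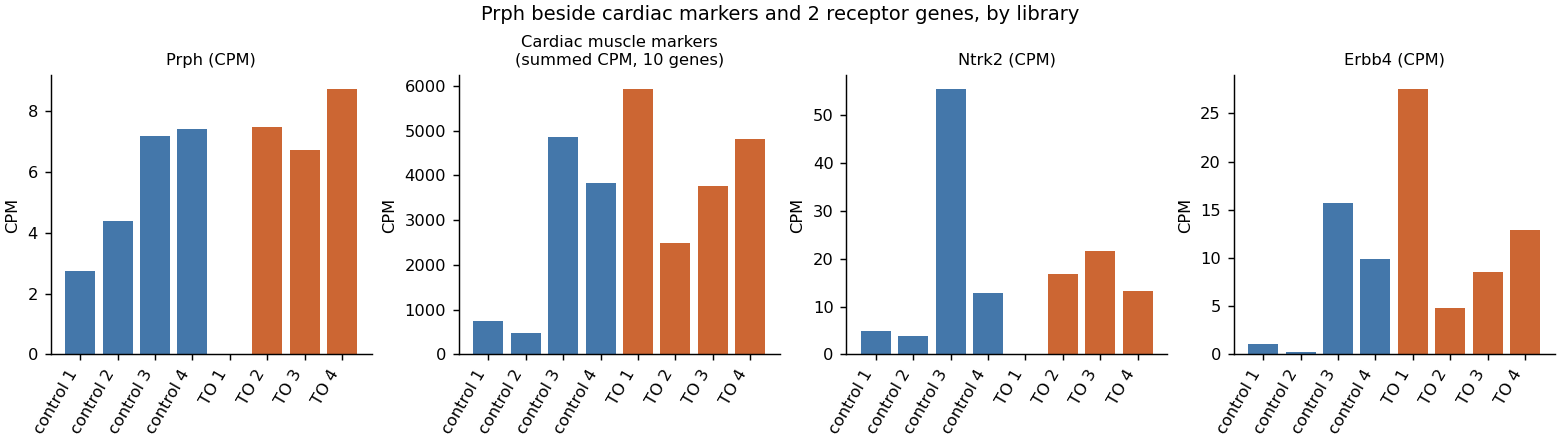
Level in CPM (y axes) of Prph, of the sum of 10 cardiac muscle markers, of Ntrk2 and of Erbb4 in each of the 8 libraries (x axes), controls in blue and TO in orange. Controls 1 and 2 are lowest in all 4 panels among the 7 deep libraries, at 756 and 479 CPM for the cardiac sum. Prph and Ntrk2 had no read pair in TO 1.

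The other glial genes were measured to place *Sox10*. Of 22 Schwann cell and glial genes, *Sox10* included, 19 were tested. In TO 11 of them stood higher and 8 stood lower, and the median log2 fold change was 0.27 against −0.0045 over all genes tested. None passed the test at an adjusted p of 0.1 or an unadjusted p of 0.05 (edgeR), nor did DESeq2 call any. The median was 0.02 without TO 4 and 0.10 without TO 2. *Cdh19*, a cadherin of Schwann cell precursors, was 0.487 to 1.36 CPM in controls and 0.955 to 3.51 CPM in TO 2, 3 and 4, with a log2 fold change of 1.31 and overlapping groups.

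Genes of myelin named here were at 0 or at a few CPM. *Pmp2*, a fatty acid binding protein of mature myelin, had no read pair in any library. *Egr2*, the factor that starts myelination, was at 0 in 7 libraries and at 0.145 CPM in TO 2. *Ncmap*, a myelin membrane protein, was 2.67, 2.83, 0.639 and 3.51 CPM in controls and 1.01, 1.69 and 2.19 CPM in TO 2, 3 and 4. In the 6 libraries its TO values were all lower (log2 fold change −0.88, edgeR, unadjusted p = 0.056), but control 3, outside these 6, was the lowest of the deep libraries.

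The most abundant genes of the list are also made by lung cells that are not glia. *Erbb3*, the neuregulin receptor that epithelia also carry, was 167 to 275 CPM in controls and 161 to 195 CPM in TO 2, 3 and 4. *Prx*, periaxin of Schwann cells and lung endothelium, was 63.7 to 113 CPM in controls and 68.7 to 175 CPM in those TO lungs. *Mal*, a membrane raft protein, was 62.8 to 97.9 CPM in controls and 62.2 to 78.6 CPM in TO. The groups overlapped for all 3 genes over the 7 deep libraries. In the 6 libraries *Mal* was lower in every TO lung (log2 fold change −0.28, edgeR, unadjusted p = 0.067). Of the 19 glial genes tested, *Mal* and *Ncmap* were lower in TO without overlap in the 6 libraries, and *Sox10* was higher. The share of all genes that were lower without overlap was not counted.

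The neuronal cytoskeleton and vesicle list holds 24 genes with *Prph* and *Tubb3* among them, and all 24 were tested. TO was higher in 14 and lower in 10, the median log2 fold change was 0.10, and 0 reached an unadjusted p of 0.05 (edgeR). The median turned to −0.10 without TO 2 and was 0.23 without control 4. *Mapt*, which encodes the axonal protein tau, was the most abundant at 45.6 to 72.4 CPM in controls and 45.0 to 66.8 CPM in TO 2, 3 and 4. *Map2*, the dendritic counterpart of tau, was 6.29 to 23.9 CPM in controls and 12.5 to 19.9 CPM in TO. *Stmn2*, a microtubule regulator of growing axons, was 9.92 to 16.6 CPM in controls and 11.4 to 20.8 CPM in TO. For these 3 genes the groups lay within each other's range or nearly so.

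Neurofilament genes were led by TO 2. *Nefm*, the medium neurofilament, was 2.85, 1.69, 0.773 and 3.07 CPM in controls and 10.1, 1.40 and 2.84 CPM in TO 2, 3 and 4. *Nefl* and *Nefh*, the light and heavy chains, were also highest in TO 2 at 4.57 and 2.23 CPM. *Elavl4*, an RNA-binding protein of neurons, had the smallest p of the list. It was 0.569, 0.877, 0.773 and 1.94 CPM in controls and 1.88, 1.61 and 3.80 CPM in TO 2, 3 and 4, with a log2 fold change of 1.11 (edgeR, unadjusted p = 0.085). *Tagln3*, a neuronal calponin-like protein, had the opposite sign at −1.14. It was 1.18, 1.69, 0.403 and 1.25 CPM in controls and 0.203, 0.908 and 0.766 CPM in TO 2, 3 and 4. In the 6 libraries *Tagln3* and *Uchl1* were lower in TO without overlap, and 0 of the 24 genes were higher without overlap. Both overlapped in the 7 deep libraries. The share of all genes that were lower without overlap was not counted.

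Genes of autonomic neuron identity and of their transmitters showed the highest median of the nerve lists at the lowest levels. Of 20 genes, *Ret* included, 18 were tested, 14 higher and 4 lower in TO, and the median log2 fold change was 0.68. This median was 0.38 with controls 3 and 4 alone against TO 2, 3 and 4, and 1.80 without control 4. It was 0.19 when 5 reads were required in every library. None was called by edgeR or DESeq2, and 1 of the 18 reached an unadjusted p of 0.05, where 5.14% of all genes did (edgeR). That gene was *Nos1*, the neuronal nitric oxide synthase of inhibitory airway neurons, at 0.526, 0.617, 0.235 and 0.444 CPM in controls and 0.347, 1.65 and 3.32 CPM in TO 2, 3 and 4. Its log2 fold change was 1.74 (edgeR, unadjusted p = 0.048, adjusted p = 0.907), with TO 2 inside the range of the controls.

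*Slc18a2*, the vesicular monoamine transporter, was one of the most abundant of the list, at 4.34 to 8.48 CPM in controls and 4.87 to 6.71 CPM in TO 2, 3 and 4 (log2 fold change −0.18). Of the 18 genes, 3, *Ret* among them, were higher in TO without overlap in the 6 libraries and 0 were lower, where 5.09% of all genes were higher. Both genes given next were also separate in the 7 deep libraries, as were 2.25% of all genes. *Isl1*, a LIM homeobox factor of autonomic and sensory neurons, was 0.876, 0.974, 1.11 and 1.86 CPM in controls and 2.11, 2.19 and 2.02 CPM in TO 2, 3 and 4 (log2 fold change 0.76, edgeR, adjusted p = 0.907). *Chrna3*, the nicotinic receptor subunit of autonomic ganglia, was 0, 0.130, 0.269 and 0.525 CPM in controls and 0.695, 1.03 and 0.993 CPM in TO. *Hand2*, a factor of sympathetic neurons and of the heart, was 1.18 and 0.585 CPM in controls 1 and 2, 4.71 and 6.09 CPM in controls 3 and 4, and 4.17 to 12.3 CPM in TO 2, 3 and 4, and so followed the cardiac markers. *Chat*, which makes acetylcholine, stood at no more than 0.134 CPM in any library. *Th*, the first enzyme of noradrenaline synthesis, was at 0 to 1.01 CPM in controls and 0.784 to 0.810 CPM in TO 2, 3 and 4.

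The GDNF family supplies the ligands of *Ret*. All 9 genes of ligands and receptors were tested, 6 higher and 3 lower in TO, and the median log2 fold change was 0.17, and none reached an unadjusted p of 0.05 (edgeR). The median was −0.0078 with controls 3 and 4 alone against TO 2, 3 and 4. *Gdnf* itself, which acts through GFRA1 and RET, was 1.75, 2.01, 3.46 and 1.45 CPM in controls and 2.26, 2.72 and 2.33 CPM in TO 2, 3 and 4. The groups were separate in the 6 libraries with TO higher, as for 5.09% of all genes tested. Control 3, outside these 6, was the highest of the deep libraries. *Nrtn*, the ligand neurturin of parasympathetic neurons, was 5.52 to 7.33 CPM in controls and 4.99 to 9.39 CPM in TO.

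RET binds its ligands through GFRA co-receptors. *Gfra2*, the neurturin co-receptor, measured 101 to 117 CPM in controls and 94.9 to 140 CPM in TO 2, 3 and 4. *Gfra1* was 10.5, 6.98, 16.1 and 10.6 CPM in controls and 10.5, 17.5 and 11.9 CPM in TO (log2 fold change 0.50, edgeR, unadjusted p = 0.085). *Gfra3*, the artemin co-receptor of sensory and sympathetic neurons, was 0.526, 0.585, 0 and 0.605 CPM in controls and 1.45, 0.908 and 1.02 CPM in TO. These groups did not overlap in the 6 libraries or in the 7 deep ones, at a log2 fold change of 0.97 (edgeR, adjusted p = 0.907). Of the 9 genes of the family, 3 were higher in TO without overlap in the 6 libraries and 0 were lower. Over all genes tested, 5.09% were higher without overlap in the 6 libraries and 2.25% in the 7.

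Neurotrophins and their receptors held the only gene of the 6 nerve lists that DESeq2 called in the 6 libraries. The 9 genes were all tested, 8 higher in TO, and the median log2 fold change was 0.30, and 2 reached an unadjusted p of 0.05, as did 5.14% of all genes (edgeR). That median was 0.17 without control 1 and 0.57 without TO 2. *Ntrk3*, the receptor for neurotrophin 3, was 10.5, 8.06, 15.4 and 12.9 CPM in controls and 17.0, 23.2 and 22.1 CPM in TO 2, 3 and 4. TO 1 had 13.8 CPM, from 4 read pairs. The deep libraries did not overlap, with means of 10.5 ± 2.41 CPM in controls and 20.8 ± 3.29 CPM in TO (SD, n = 3 each). The log2 fold change was 0.99 ± 0.22 (SE), at an edgeR unadjusted p of 0.0015 and adjusted p of 0.907. With controls 3 and 4 alone against TO 2, 3 and 4 it was 0.56 (edgeR, unadjusted p = 0.046). DESeq2 gave an adjusted p of 0.033 in the 6 libraries and called no gene of the nerve lists in all 8, where its log2 fold change for *Ntrk3* was 0.79. Its ligand *Ntf3* was 0.876, 0.715, 1.14 and 1.25 CPM in controls and 1.36, 1.28 and 2.04 CPM in TO 2, 3 and 4, also without overlap (log2 fold change 0.72, edgeR, adjusted p = 0.909). Of the 9 genes, 3 were higher in TO without overlap in the 6 libraries and 0 were lower. Over all genes tested, 5.09% were higher without overlap in the 6 libraries and 2.25% in the 7 deep ones.

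The other receptors did not show the same order. *Ntrk2*, the receptor for brain-derived neurotrophic factor, was 4.95, 3.77 and 12.8 CPM in controls 1, 2 and 4 and 55.5 CPM in control 3. It was 16.7, 21.5 and 13.3 CPM in TO 2, 3 and 4. The log2 fold change of 1.25 in the 6 libraries (edgeR, unadjusted p = 0.017) turned to −0.17 once control 3 was added. *Ngfr*, the shared p75 receptor that airway basal cells and Schwann cells both carry, was 4.55, 1.75, 4.30 and 5.53 CPM in controls and 4.89, 7.64 and 7.15 CPM in TO (log2 fold change 0.73, edgeR, unadjusted p = 0.11). *Sort1*, the widely expressed sortilin, was 314 to 519 CPM in controls and 289 to 419 CPM in TO.

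**Figure D4:**
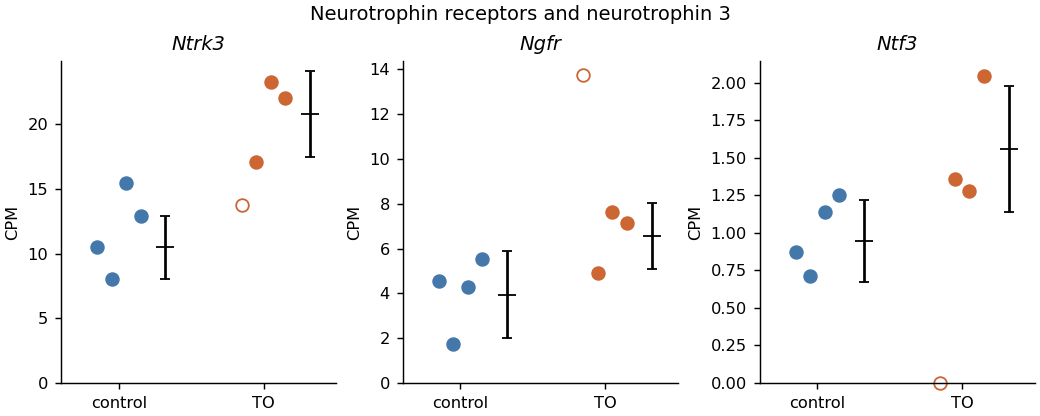
CPM (y axes) of Ntrk3, Ngfr and Ntf3 in control (blue) and TO (orange) libraries, with the open circle for TO 1 and with the mean and SD of the 6 libraries of the main comparison beside them (n = 3 each). Ntrk3 in TO 2, 3 and 4 lies at 17.0 to 23.2 CPM, above the 8.06 to 15.4 CPM of the 4 controls.

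Of the 6 neuregulin and receptor genes, 5 were tested, 2 higher and 3 lower in TO, and the median log2 fold change was −0.04, and none reached an unadjusted p of 0.05 (edgeR). That median was 0.02 without control 2, 0.06 without TO 2 and 0.02 without TO 4. *Erbb2*, the partner of ERBB3, was 103 to 114 CPM in controls and 108 to 112 CPM in TO 2, 3 and 4. *Nrg1*, the axonal signal to Schwann cells, was 3.68 to 4.61 CPM in controls and 2.14 to 5.04 CPM in TO. *Nrg2*, another neuregulin, was 3.87 to 6.66 CPM in controls and 4.88 to 6.31 CPM in TO (log2 fold change −0.14). *Erbb4*, the neuregulin receptor of heart muscle, was 1.05 and 0.227 CPM in controls 1 and 2 and 4.83 to 15.7 CPM in the other deep libraries, the order of the cardiac markers.

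Other cells of the lung share genes with neurons, above all the pulmonary neuroendocrine cells of the airway epithelium. Of their 10 markers, 9 were tested, 4 higher and 5 lower in TO, and the median log2 fold change was −0.06, and their summed level was 21.9 to 22.9 CPM in the controls of the main comparison and 21.4 to 24.0 CPM in its TO lungs. *Calca*, the precursor of CGRP, was 4.84 to 5.30 CPM in controls and 5.99 to 6.80 CPM in TO 2, 3 and 4. *Chga*, the granule protein chromogranin A, was 0.526, 0.682, 1.78 and 0.646 CPM in controls and 2.92, 4.42 and 1.22 CPM in TO, and DESeq2 called it in the 6 libraries (log2 fold change 2.21, adjusted p = 0.098). Neither edgeR in the 6 libraries (adjusted p = 0.907) nor DESeq2 in all 8 (log2 fold change 1.51) called it. *Scgn*, secretagogin of these cells, had no read pair.

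Melanocytes also derive from *Sox10*-expressing crest. Of 7 melanocyte markers 5 were tested, 4 higher in TO, and the median log2 fold change was 0.51. Their sum was 13.5 to 24.2 CPM in the controls of the main comparison, 22.7 to 27.8 CPM in its TO lungs and 30.7 CPM in control 3, outside that comparison. Most of that sum was *Mitf*, a factor with other sites of expression, at 11.8 to 26.5 CPM in controls and 19.9 to 24.9 CPM in TO. The pigment enzyme genes *Tyr*, *Tyrp1* and *Dct* were at 0 in at least 1 library each and at most 2.02 CPM. Their part in the *Sox10* values was not tested.

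Neighbouring tissues varied between libraries. The 7 skeletal muscle markers summed to 22.4 to 134 CPM in the controls and 149 to 306 CPM in the TO lungs of the main comparison, all 7 with a positive log2 fold change (median 1.26) and none called. Control 3, outside that comparison, held 174 CPM, within the range of those TO lungs. *Myh8*, the perinatal myosin heavy chain, was 32.9, 1.01, 6.79 and 9.20 CPM in controls and 44.3, 21.2 and 40.2 CPM in TO 2, 3 and 4. The 6 airway cartilage markers summed to 51.9 to 81.2 CPM in controls and 56.3 to 126 CPM in TO 2, 3 and 4, with a median log2 fold change of 0.57 in the main comparison. The 6 esophageal and stratified epithelium markers summed to 286 CPM in control 1 and to 279 CPM in the library TO 4, against 11.2 to 15.3 CPM in the other deep libraries. In these 2 libraries *Prph* was 2.76 and 8.74 CPM, its lowest and its highest among the deep libraries, and without both of them the log2 fold change was 0.28 for *Prph*, 0.38 for *Sox10* and 0.55 for *Ret* (edgeR). Over the 10 lung tissue markers the median log2 fold change was −0.02. The part of these tissues in the members' values was not tested.

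**Figure D5:**
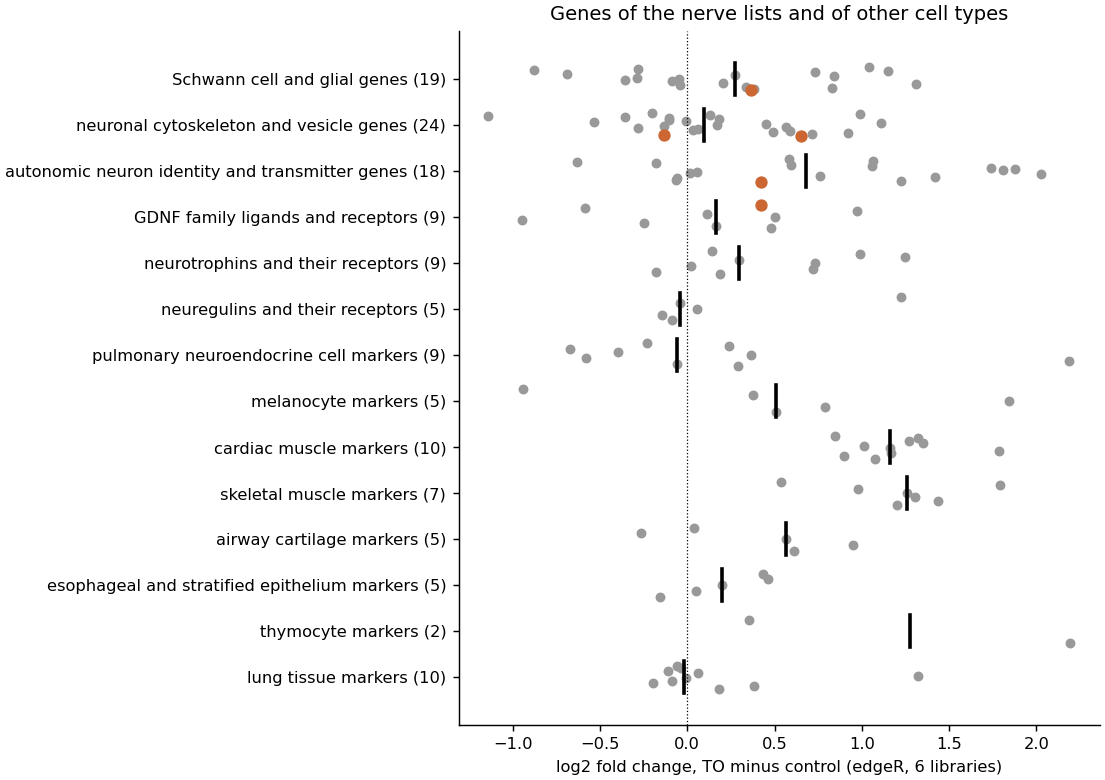
Log2 fold change, TO minus control, in the 6 libraries (x axis) of each tested gene of 14 lists (y axis, number tested in brackets), with members in orange and the median of each list as a black bar. The autonomic list has a median of 0.68, cardiac muscle 1.16 and skeletal muscle 1.26, and lung tissue markers sit at −0.02.

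RefSeq promoters were at hand for 3 of the 5 members. They are shown because *Prph*, the member with the largest fitted change, has another kind of start than the other 2. Each is the 100 bases ahead of the annotated start (GRCm38.p6, all on the forward strand), with TATAAA and ACAAT, or its reverse complement ATTGT, in capitals. ACAAT is the core that SOX factors bind.
Foxd3, chr4:99656199-99656298: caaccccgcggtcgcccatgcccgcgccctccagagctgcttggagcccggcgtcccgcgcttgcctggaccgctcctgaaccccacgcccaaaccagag
Prph, chr15:99055074-99055173: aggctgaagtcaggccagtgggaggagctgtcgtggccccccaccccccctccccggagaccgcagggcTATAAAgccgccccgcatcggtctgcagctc
Tubb3, chr8:123411324-123411423: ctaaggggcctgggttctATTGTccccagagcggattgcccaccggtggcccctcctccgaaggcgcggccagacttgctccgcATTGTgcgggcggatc
*Prph* holds the TATAAA of a TATA box. TATAAA or its reverse complement stood anywhere in the 250 bases of 12.4% of 32851 RefSeq promoters, whatever its distance from the start. *Tubb3* holds ACAAT on either strand 3 times in its 250 bases, and 27.7% of promoters hold it at least once. The 250-base windows of *Foxd3* and *Tubb3* had 21 CG dinucleotides each and that of *Prph* had 7, against a median of 6. A match is a description of the letters, not a bound site, and the RNA counts do not bear on it.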

How the data were processed

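Whole-lung RNA was sequenced by the authors as pairs of 150-base reads. Per the labels, STAR on mm10 (GRCm38) was used, and the deposited files hold raw read counts per Ensembl gene from STAR's gene counting, of which the unstranded column was taken, since both strand columns held about equal shares (49.9% to 50.1%). DESeq2 is also named there, but the deposited counts are not normalized. Ambiguous pairs (5.00% to 5.74%) and multimapping pairs (3.76% to 4.28%) stay out of the counts. Of 55385 identifiers, 55144 matched GENCODE M21 without the version.

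From the counts, CPM was computed with TMM factors of all 8 libraries. Genes with at least 5 reads in 3 libraries were tested with edgeR 4.0.16 (quasi-likelihood, Benjamini-Hochberg over all genes tested, threshold 0.1), after checks on simulated data. DESeq2 1.42.0 and limma 3.58.1 were alternatives. In simulated counts of 6 libraries with 200 changed genes, edgeR recovered 175 with 26 false calls. DESeq2 recovered 186 with 90 false calls, which limits what a call by DESeq2 alone can show here. P-values measure the spread between these lungs only.

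The members and gene lists were chosen with earlier results of these data known. Named genes were the members and, of each nerve list, the 3 most abundant and the 3 with the smallest p, with the leading genes of other cell types and the 3 genes most like each member; any other gene was picked with its values known. Some genes of these lists count in the list totals and are not reported here by name.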

Additional observations from a re-analysis of the deposited data

Results flagged for a closer look

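Of 38 groups of 4 libraries examined, 5 genes and 14 list sums in each group, 6 held a library set apart from the other 3 by Dixon's criterion, which chance alone meets in about 1 in 20 groups. *Ret* in TO 1 was 0 CPM against 5.96 to 6.94 CPM in the other TO lungs, at a depth where a count of 3 stands for 10.3 CPM. TO 1 was also high in summed skeletal muscle markers, at 2751 CPM against 149 to 306 CPM, and in thymocyte markers, at 372 CPM against 3.35 to 18.0 CPM. Control 3 was high in the summed neurotrophin genes, at 608 CPM against 348 to 388 CPM, where *Sort1* was 519 CPM and *Ntrk2* 55.5 CPM. It was also high in the summed neuregulin genes, at 413 CPM against 295 to 310 CPM, where *Erbb3* was 275 CPM. Control 1 was high in esophageal and stratified epithelium markers, at 286 CPM against 11.2 to 13.7 CPM.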

How the results depend on the processing

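*Sox10*, *Prph* and *Ret* kept a positive log2 fold change and stayed short of the threshold in all 22 alternatives, at 0.31 to 0.52, 0.07 to 1.10 and 0.25 to 0.56. *Tubb3* turned positive in 12 of 22: 0.33 in all 8 libraries, 0.11 in 7, 0.42 with DESeq2 in 8, 0.088 with limma-voom, 0.26 with the specimen code as a block and 0.65 with it in 8, and, chosen after seeing the data, 0.0030 with controls 3 and 4 against TO 2, 3 and 4 and 0.092 without control 1 and TO 4. The cause was not tested. Leaving out 1 library gave −0.49 to 0.22 for *Tubb3*. The count of genes called, 0 in the main comparison, was 44 with DESeq2, 7 with DESeq2 in 8 libraries, 40 without a filter on low counts, 3 without control 1 and TO 4, and 0 to 144 on leaving out 1 library (52 without control 4 and 144 without TO 4). None of these calls was a member.

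Pairing by replicate number was not established, as deviations of same-numbered libraries correlated at 0.05, 0.13, 0.16 and 0.07, not all over 0.1. Those pairs also share a specimen code, and the 6 pairs that do correlated at 0.02 to 0.16, against −0.16 to 0.0045 in the other 10, of which 9 were negative. The deviations were taken from each group's mean, so positive pairs force negative ones elsewhere, and the negative values add nothing on the code. With the replicate number as a block, 219 genes were called in the 6 libraries and 3 in all 8, no member among them, and *Tubb3* was 0.29 and 0.66. In the 6 libraries control 1 and TO 3 had no partner of their number, so that fit rested only on the pairs numbered 2 and 4. Depth limits TO 1 most: 0 to 4 read pairs fell on each member. *Foxd3*, with no reads, could not be fitted.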
